A study of Mus musculus with 19 samples.

Results

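The organoid lines grown from pancreatic adenocarcinoma, 6 of the 19 lines of the study, were set against the pooled 13 lines with intact Trp53, 7 of them normal and 6 PanIN. The lines were chosen by their labels alone. Organoids are three-dimensional cultures, here of duct epithelium that forms hollow spheres in a gel of basement membrane proteins. PanIN, or pancreatic intraepithelial neoplasia, is the duct lesion that comes before ductal adenocarcinoma. The normal lines came from ducts of histologically normal pancreas of wild-type mice, the PanIN lines from ducts of PanIN-containing pancreas of mice with Pdx1-Cre, and the tumor lines from adenocarcinoma of mice with Pdx1-Cre and the Cre-dependent Trp53 LSL-R172H allele. Pdx1-Cre recombines in the pancreatic epithelium from its embryonic progenitors on. All mice had a C57B6/J background, and the labels give no ages. The normal lines came from 5 female and 2 male mice, and the PanIN and tumor lines from 3 of each sex per group. Every line grew in Matrigel with R-spondin, noggin, gastrin, EGF, FGF-10 and A83-01, an inhibitor of the TGF-beta receptor. Each line is 1 culture, and the labels do not say whether lines shared a mouse, and p-values therefore measure only how much lines spread.

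All 6 tumor lines carry the Trp53 allele and none of the other 13 does, so the allele and the tumor origin cannot be told apart. The pooled comparison sets the tumor lines against the mean of the 13 others. It can also call genes in which tumor and PanIN lines are alike. Within it, a gene is called late here when its mean in tumor lines was at least 0.5 above, or below, both the normal and the PanIN mean on the log2(TPM + 1) scale, while the normal and PanIN means differed by under 0.25. TPM is a transcript abundance corrected for length and scaled to one total per library. The word late names this pattern over groups of separate lines and no time course. Genes with a TPM of at least 1 in at least 6 of the 19 lines were used.

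p53, the protein of Trp53, is a transcription factor that is stabilised after DNA damage and other stress. It switches on genes of cell cycle arrest, cell death and DNA repair, and through the arrest gene Cdkn1a it holds back the E2F and DREAM-bound genes of S phase and mitosis. The R172H change lies in its DNA-binding domain and impairs binding to target sites. In duct adenocarcinoma, loss or mutation of p53 usually comes after the precursor lesion has formed.

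Each line had 11938 to 12437 genes at a TPM of 1 or more. TPM keeps no depth, so the reads behind a value are unknown. Duct markers were high in every line, with a summed TPM of 7758 to 9593 in tumor lines and 8250 to 15822 in the others. Summed markers of acinar, endocrine, fibroblast, endothelial, erythroid, neural and fat cells stayed at or below 3.22 TPM in every line. Leukocyte markers summed to 1.49 to 3.94 TPM in tumor lines and 2.75 to 8.28 in the others, mostly from Cd68 (1.2 to 3.65 TPM over all lines) and Csf1r (0.18 to 5.57 TPM), with 5 of 10 markers at 0 throughout, and their part in the results was not tested. The mesothelial sum was almost entirely Msln, a surface protein that duct tumors also make, at 105 to 350 TPM in tumor lines and 48 to 353 in the others. A set of 11 rows for which the authors' table gives no comparison took 16.3%, 18.2% and 21.1% of all TPM in tumor lines 5, 8 and 9 and 22.3% to 28.6% in the other 16 lines. Since TPM has a fixed total, a smaller share there raises every other gene. The part of this in the results below was not tested as such, but values rescaled without those rows are given beside the counts.

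Of 12500 genes tested, 2334 (18.7%) were called higher and 1543 (12.3%) lower in tumor lines than in the pooled lines, by limma with a Benjamini-Hochberg adjusted p below 0.05. The median difference over all tested genes was 0.05 on the log2 scale. Higher genes made up 60.2% of the calls. That share was 49.7% with median-of-ratios scaling, 51.0% with quantile normalization and 41.8% after rescaling without the 11 rows, where 1469 genes were called higher and 2049 lower. The median over all genes was then 0.00, 0.02 and -0.03. Of the genes named with values here, Trp53 and Smad4, neither of them called, changed sign with quantile normalization, and no other did under these scalings. In bulk samples, fewer cells of a type and less RNA per cell cannot be told apart. Every tumor line lay above all 13 others for 20 genes (0.16%) and below all 13 for 21 (0.168%).

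The late pattern held for 499 genes, 288 higher and 211 lower in tumor lines. After rescaling without the 11 rows it held for 197 higher and 284 lower genes. The counts were 214 and 266 with median-of-ratios scaling and 226 and 228 with quantile normalization. Late lower genes were thus no fewer than late higher ones under each of these scalings. Normal and PanIN means lay within 0.25 of each other for 10035 tested genes (80.3%), so most genes met that condition. Since the late rule uses the same means as the test, the late genes' differences are descriptions and carry no p-value here. The 268 late genes among the higher calls were 11.5% of them, and the 196 among the lower calls 12.7%. Most other higher calls, 1677, had normal and PanIN means close together and a tumor difference under 0.5 from one of them. In the lower calls, 637 had PanIN lines between the other groups against 349 of the higher calls. Of the late genes, 35 were not called, 20 higher and 15 lower. Of the late higher genes, 9 had fewer than 6 lines outside the tumor group at a TPM of 1 and passed the filter only with tumor lines. Only 1 of these, Spdef, had no such line, and 6 late lower genes had no tumor line there.

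Just inside the limit of 0.5 were Mett10d, at 0.500241 above the nearer group, and Rgl1, at 0.500865 below it. Just outside stood Xpo4 at 0.499956 and Sdc4 at 0.499824. At the limit of 0.25 between normal and PanIN, Tmem56 at 0.238666 and Efhb at 0.247594 were inside, and Tuba4a at 0.25334 and Stk36 at 0.251193 outside.

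The late genes were carried unevenly by the 6 tumor lines. Tumor lines 5, 8 and 9 stood above all 13 other lines for 257, 265 and 233 of the 288 late higher genes. Tumor lines 3, 4 and 7 did so for 38, 15 and 76. For the 211 late lower genes, tumor lines 5, 8 and 9 lay below all others in 191, 196 and 178, and lines 3, 4 and 7 in 39, 29 and 52. Lines 5, 8 and 9 all carried 209 of the higher genes (72.6%) and 160 of the lower ones (75.8%). A gene carried by exactly 3 tumor lines was carried by these 3 in 131 of 142 higher and 98 of 109 lower cases. All 6 tumor lines carried 4 late higher and 8 late lower genes, and for 1 of the higher ones, Spdef, the filter on low values fixed this.

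**Figure D1:**
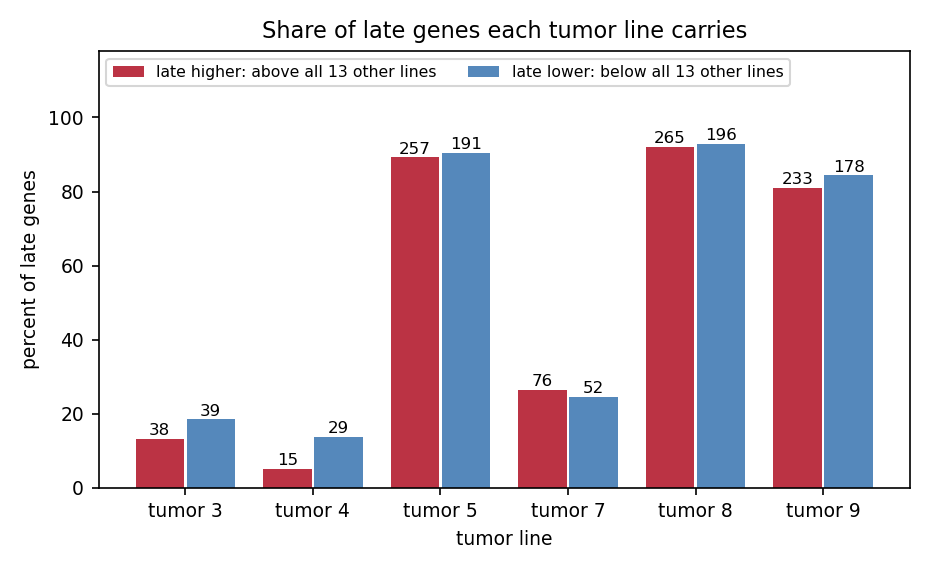
Percent of the 288 late higher and 211 late lower genes for which each tumor line lies beyond all 13 other lines, with the number of genes on each bar. Lines 5, 8 and 9 carry 233 to 265 of the higher genes, and lines 3, 4 and 7 carry 15 to 76.

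A score per line, the mean log2(TPM + 1) over the late higher genes minus the mean of all 19 lines, ran from -0.07 in tumor line 4 to 0.83 in tumor line 5. Tumor lines 3, 7, 9 and 8 lay at 0.27, 0.34, 0.64 and 0.79. Normal lines ran from -0.91 to 0.04 and PanIN lines from -0.53 to 0.37. Tumor line 4 was thus inside the range of the other lines, and PanIN line 6 stood above tumor lines 3, 4 and 7. The score of the late lower genes ran from -1.05 in tumor line 8 to -0.03 in tumor line 4, with -1.02 in line 5 and -0.76 in line 9. It was -0.04 to 0.50 in normal lines and -0.36, again in PanIN line 6, to 0.53 in PanIN lines.

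**Figure D2:**
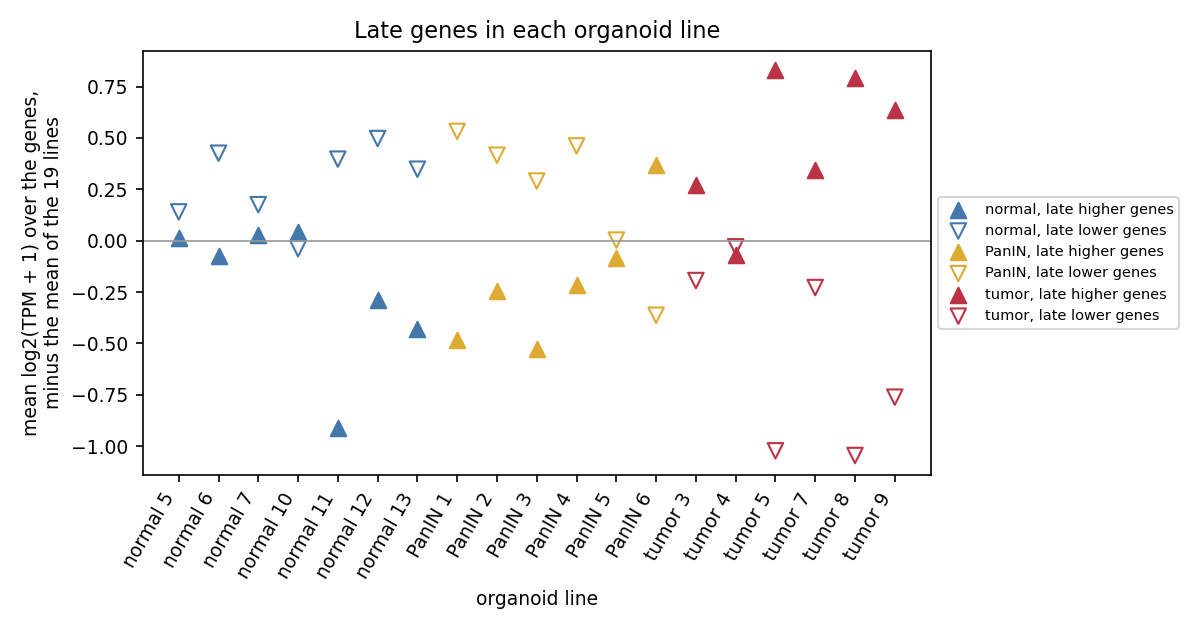
Score of the late higher genes (filled triangles) and of the late lower genes (open triangles) in each of the 19 lines, as mean log2(TPM + 1) minus the mean over lines. Tumor lines 5, 8 and 9 lie at 0.64 to 0.83 and -0.76 to -1.05, while tumor line 4 lies at -0.07 and -0.03, near the normal lines.

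Without tumor lines 5, 8 and 9 together, 5 genes were called higher and 2 lower, from 3 tumor lines, with 567 higher and 675 lower at an unadjusted p below 0.05. The genes called higher were Acsm3, Agr2, Anxa10, Bche and Slc39a8, and those called lower were Fas and Bcl2a1d. These were named after their values were seen. Anxa10 passed the filter only with tumor lines, since fewer than 6 of the 13 other lines reached a TPM of 1. Over all 19 lines, tumor minus PanIN was 1.22 for Acsm3, 1.99 for Agr2, 1.23 for Anxa10, -0.15 for Bche and 0.57 for Slc39a8. It was -1.12 for Fas and -0.10 for Bcl2a1d. PanIN minus normal was 2.63, 2.19, 0.31, 1.25 and 1.06, then -0.06 and -1.82, in the same order. Without lines 5, 8 and 9, the late pattern held for 41 higher genes, 24 of them among the 288. It also held for 55 lower genes, 47 of them among the 211. Leaving out 1 of these lines also moved the calls, to 1174 higher and 926 lower without line 5, 878 and 823 without line 8, and 1209 and 981 without line 9.

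Library identifiers in the table's column names fall into 3 series, each with tumor and other lines, and what these are is not stated. Within the first series, with 1 tumor line (4) against 6 others, the median difference of the late higher genes was 0.10 and 214 of 288 were higher. It was 1.01 in the second series (tumor lines 5, 7 and 8 against 3 others) with 286 higher, and 0.53 in the third (tumor lines 3 and 9 against 4 others) with 288 higher. For the late lower genes the medians were -0.38, -0.94 and -0.55, with 192, 211 and 209 of 211 lower. The late genes were chosen by the means of these same lines. Their direction within a series is therefore partly fixed and is no independent check.

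In the authors' deposited table, 252 of the 288 late higher genes had an adjusted p below 0.05 in tumor against normal, 142 of 281 in tumor against PanIN and 138 in both. For the late lower genes the authors' deposited table gives 182 of 211, 150 of 204 and 149. Both comparisons use the same tumor lines. Since late genes were picked by the group means of these same lines, the counts are partly fixed by that choice. They are no independent check, and the share over all tested genes is not given here.

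Among late genes whose higher set averaged 5 TPM or more, 3 stood above all 13 other lines in every tumor line. H2afz, the histone variant H2A.Z of promoters, ran from 956 to 1541 TPM with a median of 1150 in tumor lines, and from 419 to 909 with a median of 760 in the others. The groups did not overlap and the difference was 0.68 ± 0.14 (SE, 6 against 13 lines), or 1.60-fold, from limma's fit, as are all differences with SE below. Slc16a1, the lactate and monocarboxylate transporter MCT1, ran from 78.9 to 128 TPM with a median of 89.6 in tumor lines and from 44.7 to 78.3 with a median of 61.4 in the others, a difference of 0.66 ± 0.12. Stk39, the kinase SPAK that controls ion cotransporters, ran from 20.6 to 30.4 TPM against 11.5 to 19.6, a difference of 0.57 ± 0.11. Tumor lines 3, 4, 5 and 7 sat within 20.6 to 21.1 TPM for Stk39, and lines 8 and 9 reached 24.5 and 30.4.

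Spdef, a transcription factor of mucus-secreting cells, was the fourth late higher gene without overlap and was below that level of TPM. It stood at 1.98, 1.73, 1.33, 1.07, 5.72 and 3.36 TPM in tumor lines 3, 4, 5, 7, 8 and 9. The 13 other lines lay between 0.02 and 0.54 TPM with a median of 0.12. The difference was 1.47 ± 0.18. Since no other line reached a TPM of 1, Spdef could pass the filter only with all 6 tumor lines at 1 or more, so the filter fixed that its groups do not overlap.

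Of the late lower genes without overlap, 4 met that level. Fas, the death receptor and a direct p53 target, ran from 1.09 to 4.06 TPM with a median of 2.70 in tumor lines and from 4.75 to 8.20 with a median of 6.74 in the others, a difference of -1.15 ± 0.16. Tumor lines 5 and 8 were lowest at 1.21 and 1.09 TPM. Plk2, a polo-like kinase and another p53 target, ran from 69.2 to 116 TPM against 122.5 to 203, with a difference of -0.71 ± 0.12.

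Kif3a, a motor subunit of the kinesin that carries cargo up the cilium, ran from 9.41 to 14.0 TPM in tumor lines and 14.9 to 27.8 in the others, a difference of -0.65 ± 0.11. Fam83f, a member of a family of casein kinase partners, ran from 2.61 to 4.52 TPM against 4.83 to 8.63, a difference of -0.63 ± 0.12. For Kif3a the gap between the groups was small, with the highest tumor line at 14.0 TPM and the lowest other line at 14.9.

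**Figure D3:**
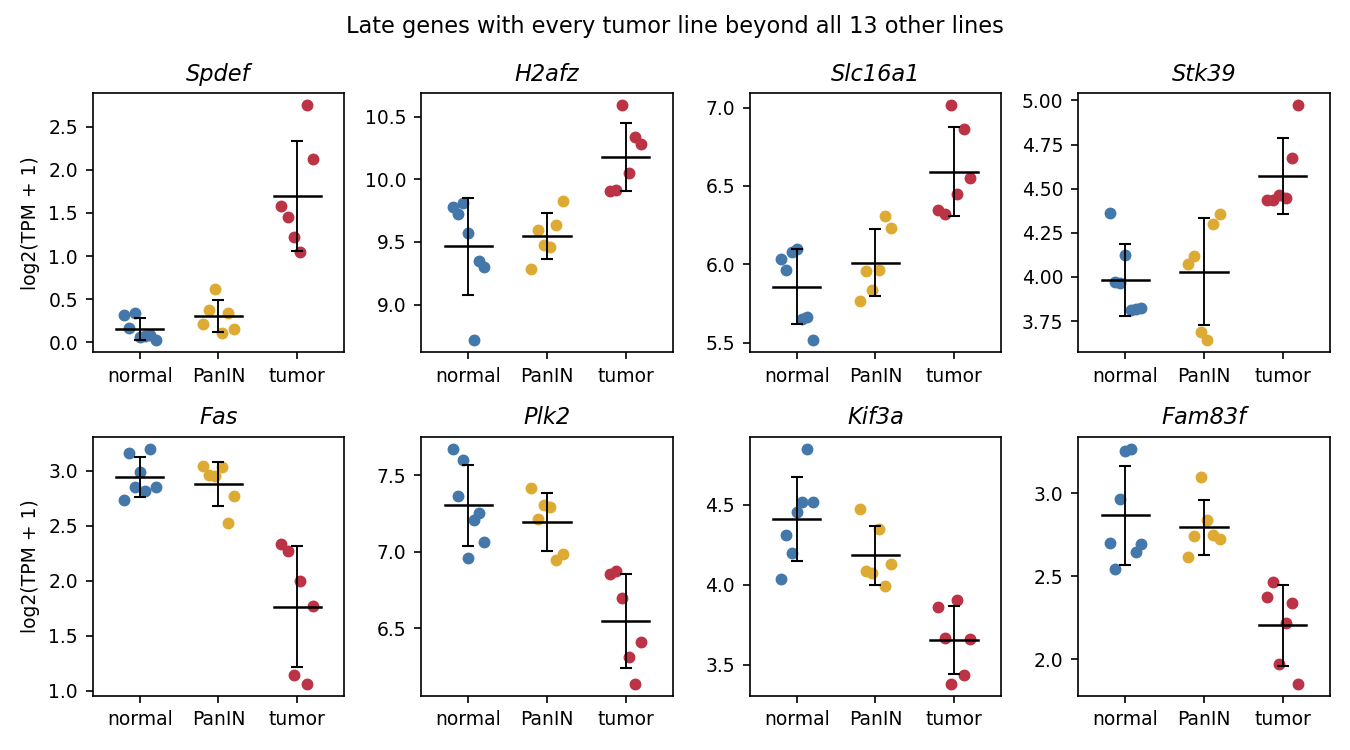
log2(TPM + 1) of late genes whose 6 tumor lines all lie beyond the 13 other lines, 1 panel per gene, with a point per line, a bar at the group mean and SD as error. The axes do not start at 0. Spdef, H2afz, Slc16a1 and Stk39 are higher and Fas, Plk2, Kif3a and Fam83f lower in every tumor line.

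Of the late higher genes carried by 3 or fewer tumor lines, again averaging 5 TPM or more in tumor lines, Tspan12, a tetraspanin of Wnt receptor signalling, had the largest difference. It was 1.18 ± 0.29, at 15.2 to 37.8 TPM in tumor lines against 4.36 to 32.2 in the others. Its highest other value, 32.2 TPM, was in normal line 6, and the next normal line was at 7.56. Mybl2, the B-Myb factor that turns on G2 and M phase genes, stood at 10.8 to 31.2 TPM against 3.90 to 16.5, a difference of 1.00 ± 0.24. The next 3 were histone genes, Hist3h2bb-ps at 0.95 ± 0.28, Hist1h1a at 0.94 ± 0.25 and Hist1h2an at 0.90 ± 0.28. Hist1h1a, a linker histone, ran from 379 to 972 TPM in tumor lines and from 158 to 662 in the others, so the groups overlapped.

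The late lower genes carried by 3 or fewer tumor lines with the largest differences were led by genes of motile cilia. Nme5, an axoneme protein, ran from 2.46 to 24.6 TPM with a median of 13.7 in tumor lines and from 18.8 to 59.7 with a median of 39.3 in the others, a difference of -1.87 ± 0.39. Kif27, a kinesin of motile cilia, differed by -1.50 ± 0.30 and Spag6, a protein of the axoneme's central pair, by -1.37 ± 0.27. Sprr1a, a precursor of the cornified envelope, stood at 18.5 to 279 TPM against 63.8 to 624.6 and differed by -1.61 ± 0.51. Dio3os differed by -1.76 ± 0.38. It is an antisense transcript and the sources used here do not say whether counting used the strand, so its value is uncertain.

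Counts of called list members below stand beside 18.7% called higher and 12.3% called lower over all tested genes. Of the gene lists, the one with most late higher genes was the replication-dependent histones, which package new DNA in S phase and whose RNA lacks a poly(A) tail. The libraries were made from total RNA without ribosomal RNA, so such transcripts are retained. Of 59 tested histone genes, a list added after the data were seen, 55 were late and 56 were called higher, with a median difference of 0.78 against 0.05 over all tested genes. Many are near-identical copies that share reads, so single values are uncertain. Of the 55, 45 lie on chromosome 13, which holds the main histone cluster. Chromosome 13 held 19.9% of the late higher genes that could be placed and 3.93% of the tested genes.

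Of the 41 tested cell cycle genes, 37 were called higher and 0 lower, 25 of them late, with a median of 0.64. Cenpa, the histone of centromeres, ran from 29.8 to 55.9 TPM with a median of 34.9 in tumor lines and from 8.74 to 30.7 with a median of 20.9 in the others, a difference of 0.82 ± 0.20. Cdk1, the kinase of mitotic entry, ran from 71.3 to 146 TPM against 33.3 to 108, a difference of 0.65 ± 0.18. Mki67, the proliferation antigen Ki-67, ran from 85.5 to 153 TPM against 35.9 to 121 and differed by 0.71 ± 0.20. Cdc20, the activator of the anaphase-promoting complex, ran from 95.1 to 192 TPM against 38.01 to 169 and differed by 0.68 ± 0.23. These 3 genes were named after their values were seen, and the groups overlapped for each of them and for Cenpa. Cell cycle genes outside the late set included E2f2, an E2F factor, which was 0.87 ± 0.22 higher with an adjusted p of 0.00926. Tk1, the thymidine kinase of S phase, was 0.78 ± 0.19 higher (adjusted p 0.00937) and Cdk2 0.38 ± 0.10 higher (adjusted p 0.00972), all by limma.

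The cell cycle score was 0.79, 0.76 and 0.64 in tumor lines 5, 8 and 9 and -0.18 in tumor line 4. PanIN line 6 had 0.46, above tumor lines 3, 4 and 7, and normal line 11 was lowest at -1.04. Within the 3 identifier series the list's median difference was -0.02, 1.02 and 0.51, and that of the histones 0.10, 1.21 and 0.57. The number of cell cycle genes called higher was 13 without tumor line 5, 13 without line 8, 19 without line 9 and 0 without all of them. The corresponding counts of histones were 14, 12, 36 and 0. With the identifier series as a covariate, 36 histones were called.

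**Figure D4:**
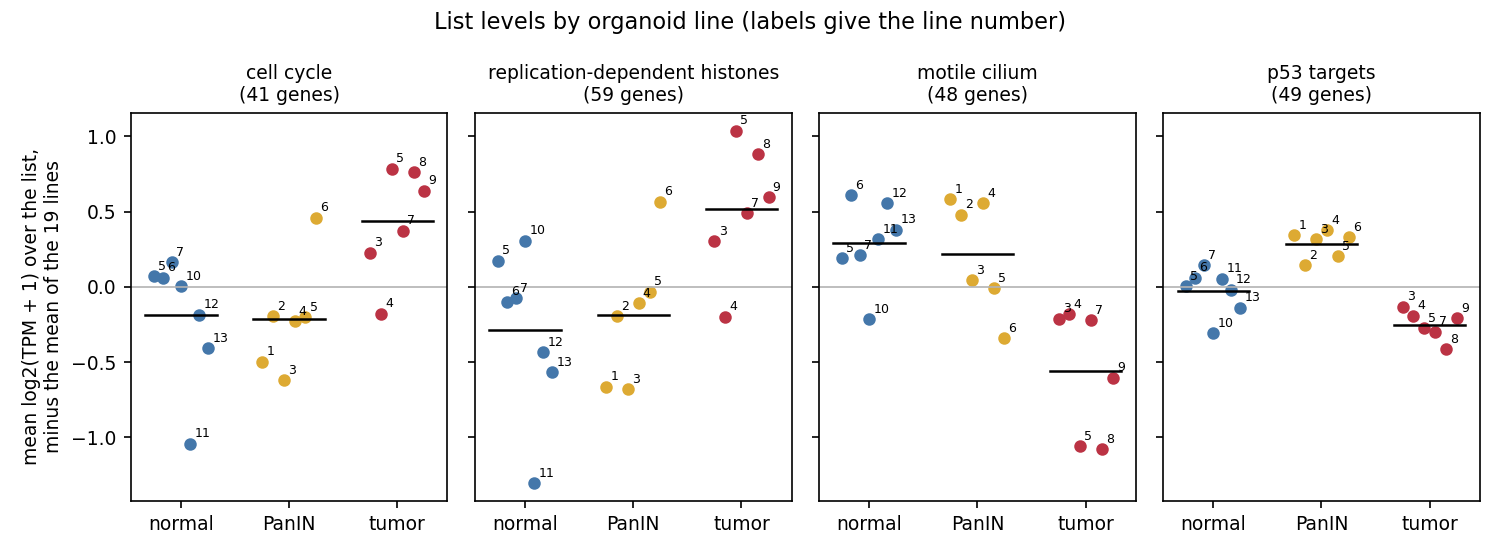
Score per line of the cell cycle (41 genes), replication-dependent histone (59), motile cilium (48) and p53 target (49) lists, as mean log2(TPM + 1) minus the mean over lines. Points carry the line number and bars are group means. Tumor line 4 lies at -0.18 for the cell cycle and tumor line 5 at 0.79.

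CDK inhibitors, which slow the cell cycle, were among the late higher genes as well and were named after their values were seen. Cdkn2c differed by 0.62 ± 0.17, Cdkn2d by 0.56 ± 0.15 and Cdkn1c by 0.54 ± 0.17. Cdkn2c ran from 16.0 to 32.3 TPM in tumor lines and 7.90 to 23.1 in the others. Further late higher genes outside the lists, chosen in the same way, were Hmgb2, a chromatin protein of dividing cells, at 0.69 ± 0.19, and Racgap1, a regulator of cytokinesis, at 0.70 ± 0.20. Rps6ka6, a ribosomal S6 kinase, stood at 4.12 to 7.52 TPM against 0.90 to 4.39 and differed by 0.99 ± 0.21. Sim1, a transcription factor of the hypothalamus, stood at 1.50 to 3.65 TPM against 0.17 to 1.94 and differed by 0.91 ± 0.19.

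Promoters were searched because many late higher genes act in the cell cycle. RefSeq promoters of GRCm38.p6, 250 bases before to 50 after the start, were matched for 9248 of the 12500 tested genes. The CHR element TTTGAA, through which the DREAM and B-Myb complexes bind cell cycle promoters, was found on either strand in 14.3% of them. It was found in 83 of 229 late higher promoters (36.2%), in 10 of 21 of the late cell cycle genes (47.6%), in 24 of 49 of the late histones (49.0%) and in 22 of 152 late lower promoters (14.5%). The CCAAT box, CCAAT, bound by NF-Y, was in 43.8% of all, 63.8% of late higher, 81.0% of late cell cycle, 85.7% of late histone and 40.1% of late lower promoters. The E2F site TTTCCCGC was in 2.54% of all, 5.24% of late higher and 14.3% of late cell cycle promoters (3 of 21). It was in 1 of 49 late histone promoters (2.04%) and in 0 of 152 late lower promoters. Matches to different motifs were counted separately and may overlap. A match of letters is a description and no evidence of binding.

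The 150 bases before the start of Cdc20 and Cdk1 show the CHR element, in capitals, in 2 late genes that act in mitosis. They lie at chr4:118437344-118437493 on the minus strand and at chr10:69352913-69353062 on the minus strand, and the Cdk1 sequence holds the element at 2 places.
Cdc20: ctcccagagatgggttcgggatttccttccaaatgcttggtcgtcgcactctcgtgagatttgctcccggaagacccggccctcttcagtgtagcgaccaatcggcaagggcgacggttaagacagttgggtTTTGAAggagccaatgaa
Cdk1: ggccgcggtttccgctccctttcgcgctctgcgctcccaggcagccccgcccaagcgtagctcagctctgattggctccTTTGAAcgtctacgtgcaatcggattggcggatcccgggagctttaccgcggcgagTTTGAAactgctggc

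A second group of late higher genes belonged to the ATF4 response and to serine synthesis. ATF4 is the transcription factor of amino acid and endoplasmic reticulum stress, and it switches on the enzymes that make serine, glycine and one-carbon units for nucleotides. Of 22 genes of the unfolded protein response and ATF4, 9 were called higher and 0 lower, 7 of them late, with a median of 0.33. The 9 are 40.9% of the list, against 18.7% over all tested genes. Of 23 serine, glycine and one-carbon genes, a list added after the data were seen, 17 were called higher and 0 lower, 6 of them late, with a median of 0.53. Atf4 itself ran from 169 to 400 TPM with a median of 229 in tumor lines and from 139 to 223 with a median of 162 in the others, a difference of 0.51 ± 0.14. Mthfd2, a mitochondrial folate enzyme, ran from 39.0 to 113 TPM against 22.2 to 48.2 and differed by 0.88 ± 0.20. Shmt2, which makes glycine from serine in mitochondria, also differed by 0.88, ± 0.21.

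Psat1 and Psph, the second and last enzymes of serine synthesis, differed by 0.73 ± 0.17 and 0.79 ± 0.19. Psph reached 76.8 TPM in tumor line 5, while the next tumor line was at 38.9 and the other 13 lines ran from 15.6 to 29.3. Asns, the asparagine synthetase, was not late because PanIN lines averaged 0.37 above normal lines. It was 1.01 ± 0.22 higher, with an adjusted p of 0.00551 by limma, and 1 PanIN line, 5, reached 143 TPM. The score of the unfolded protein response and ATF4 list was 0.75 in tumor line 5 and 0.02 to 0.23 in the other tumor lines. Normal lines ran from -0.38 to 0.03 and PanIN lines from -0.32 to 0.40, highest in PanIN line 5. Without tumor lines 5, 8 and 9, 0 genes of this list or the serine list were called. At an unadjusted p below 0.05, 4 and 8 were higher. The ATF4 element TGATGNAA was in 2 of 8 promoters of late genes of these lists (25%) and in 2.65% of all promoters.

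The late lower genes that lists could place were mostly genes of the cilium. Primary cilia are single sensory projections of duct cells, built by intraflagellar transport, and motile cilia add dynein arms, radial spokes and a central pair. Foxj1 and the RFX factors, which bind the X-box, switch on the genes of motile cilia. Of 48 tested motile cilium genes, a list added after the data were seen, 41 were called lower and 1 higher, 26 of them late, with a median of -0.95. Of 27 primary cilium genes 20 were called lower and 0 higher, 4 of them late, with a median of -0.42.

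Kif9, a kinesin of motile cilia, ran from 1.08 to 5.27 TPM with a median of 3.45 in tumor lines and from 4.19 to 13.3 with a median of 9.61 in the others, a difference of -1.29 ± 0.24. Capsl, a calcium-binding protein of ciliated cells, ran from 9.75 to 38.04 TPM against 29.9 to 82.3 and differed by -1.18 ± 0.26. Ccdc114, a docking protein of the outer dynein arm, differed by -1.06 ± 0.20 and Rsph1, a radial spoke head protein, by -1.04 ± 0.19. For each of these the highest tumor line overlapped the lowest other lines. Foxj1, not late because PanIN lines averaged 0.57 above normal lines, was 1.41 ± 0.33 lower, at 10.4 to 88.2 TPM in tumor lines and 42.5 to 186 in the others (adjusted p 0.00692 by limma).

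Among primary cilium genes, Ift57, a subunit of the transport particle, was late and ran from 9.64 to 19.7 TPM against 17.5 to 38.9, a difference of -0.86 ± 0.17. Bbs5, a subunit of the BBSome that carries membrane proteins out of the cilium, was lower in all 6 tumor lines, at 7.37 to 10.0 TPM against 10.1 to 17.2, by 0.48 ± 0.08 on the log2 scale (adjusted p 0.00191). Rpgrip1l, of the gate at the base of the cilium, differed by -0.64 ± 0.12 (adjusted p 0.00299) and Bbs2 by -0.63 ± 0.12 (adjusted p 0.00339), all by limma. Rpgr, a partner at the same gate, was late at -0.96 ± 0.19 and was named after its values were seen. PanIN minus normal was already -0.35 for Bbs5, -0.53 for Rpgrip1l and -0.27 for Bbs2. Tumor minus PanIN was -0.29, -0.36 and -0.49 in the same order.

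The motile cilium score was -1.06, -1.08 and -0.60 in tumor lines 5, 8 and 9 and -0.18 to -0.22 in lines 3, 4 and 7. Normal lines ran from -0.22 to 0.61 and PanIN lines from -0.34 to 0.58, so lines 3, 4 and 7 lay within the range of the others. The median difference of the list was -0.54, -1.13 and -0.63 in the 3 identifier series, and that of the primary cilium list -0.29, -0.58 and -0.26. Without tumor lines 5, 8 and 9 the motile cilium list had a median of -0.50, with 0 genes called, 30 lower at an unadjusted p below 0.05 and 14 late. With the filter raised to a TPM of 5, 23 were called lower.

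The X-box, searched as GTTNCCANG on both strands, was in 6.91% of all promoters, 34 of 152 late lower promoters (22.4%), 7 of 20 late cilium genes (35%) and 5.68% of late higher promoters. The 150 bases before the start of Kif9 and Capsl show the match in capitals in 2 late cilium genes, at chr9:110476844-110476993 and chr15:9435878-9436027, both on the plus strand of GRCm38.p6.
Kif9: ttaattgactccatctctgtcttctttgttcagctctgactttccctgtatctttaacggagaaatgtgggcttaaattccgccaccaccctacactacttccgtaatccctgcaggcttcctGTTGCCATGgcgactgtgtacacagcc
Capsl: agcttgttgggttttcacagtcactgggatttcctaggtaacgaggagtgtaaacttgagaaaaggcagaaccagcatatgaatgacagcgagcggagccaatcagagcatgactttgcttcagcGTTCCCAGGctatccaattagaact

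The p53 targets were mostly lower in tumor lines than in the pooled lines but rarely late. At the median, tumor lines lay under 0.5 below normal lines, and PanIN lines lay above normal lines. Of 49 tested targets of all roles, 30 were called lower and 2 higher, with a median of -0.42, and 3 were late. The median was -0.19 for tumor against normal, -0.59 for tumor against PanIN and 0.35 for PanIN against normal. By role, 7 of 14 arrest genes, 10 of 14 death genes, 4 of 8 repair genes and 9 of 13 feedback and metabolism genes were called lower. Over all tested genes 12.3% were called lower. The score per line ran from -0.41 to -0.13 in tumor lines, -0.31 to 0.14 in normal lines and 0.14 to 0.38 in PanIN lines. Tumor lines were all below the PanIN lines and overlapped the normal lines.

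Of the arrest genes, Cdkn1a, the p21 inhibitor of CDKs, ran from 22.3 to 47.0 TPM with a median of 34.7 in tumor lines and from 34.2 to 89.3 with a median of 65.8 in the others, and was 0.91 ± 0.17 lower (adjusted p 0.00282 by limma). Psrc1, a spindle protein, was 0.55 ± 0.09 lower (adjusted p 0.00191 by limma). Of the death genes, Eda2r, a receptor of the TNF receptor family, ran from 19.8 to 31.4 TPM against 21.4 to 69.9 and was 0.95 ± 0.14 lower (adjusted p 0.000841 by limma). Bbc3, which encodes PUMA, was 0.61 ± 0.14 lower (adjusted p 0.00623 by limma). Of the other roles, Mgmt, which repairs alkylated guanine, ran from 6.43 to 18.2 TPM against 11.5 to 43.3 and was 1.27 ± 0.23 lower (adjusted p 0.00263 by limma). Trp53inp1, a feedback gene, was 1.04 ± 0.25 lower (adjusted p 0.00807 by limma). Against normal lines alone, Bbc3 differed by -0.31 (adjusted p 0.128 by limma) and Psrc1 by -0.25 (adjusted p 0.0640 by limma). For both, PanIN lines averaged 0.65 above normal lines. Tumor minus normal was -0.62 for Cdkn1a, -0.64 for Eda2r, -0.98 for Mgmt and -0.88 for Trp53inp1.

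The late p53 targets were Fas and Plk2, given above, and Tap1, the peptide transporter of antigen presentation, which ran from 2.92 to 5.05 TPM against 4.46 to 9.0 and differed by -0.61 ± 0.11. The median of the p53 targets was -0.39, -0.40 and -0.26 in the 3 identifier series. The value of the first series, -0.39, rests on tumor line 4 alone. Without tumor lines 5, 8 and 9 the median was -0.37, with 1 target called lower and 23 lower at an unadjusted p below 0.05. These targets were chosen with earlier results known, and their direction in tumor lines is no independent evidence.

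Trp53 RNA itself stood at 69.8 ± 10.2 TPM (SD, n = 6) in tumor lines and 65.1 ± 10.5 (SD, n = 13) in the others, an unresolved difference (adjusted p 0.460 by limma). The allele is a point mutation, so its RNA level checks no genotype. Cdkn2a, which encodes p16 and the p53 activator ARF, stood at 99.7 ± 18.7 TPM against 63.8 ± 15.6, 0.65 ± 0.13 higher on the log2 scale (adjusted p 0.00350 by limma). For Cdkn2a, PanIN lines averaged 0.41 above normal lines, and tumor lines 0.43 above PanIN lines (adjusted p 0.0772 by limma). The highest line for Cdkn2a was tumor line 4 at 129 TPM. Without tumor lines 5, 8 and 9 its difference was 0.63, close to that in all lines, while the adjusted p from the 3 tumor lines left was 0.235. Cdkn2b, the neighbouring p15 gene, stood at 44.6 ± 4.51 TPM against 56.1 ± 11.6, a difference of -0.31 ± 0.12 (adjusted p 0.0507 by limma). It was called lower in 14 of 34 alternative settings, among them median-of-ratios scaling (adjusted p 0.0406), quantile normalization (0.0330) and rescaling without the 11 rows (0.0278), and its adjusted p ranged from 0.0233 to 0.483. Smad4, the TGF-beta signal transducer often deleted in this cancer, stood at 50.4 ± 3.56 TPM against 47.5 ± 3.56 (adjusted p 0.269 by limma).

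Targets of YAP and TAZ, the factors that the Hippo pathway keeps out of the nucleus, were partly lower. Of 15 Hippo genes 5 were called lower and 0 higher, with 3 late and a median of -0.11. The 5 are 33.3% of the list, against 12.3% called lower over all tested genes. Ankrd1 ran from 120 to 307 TPM with a median of 192 in tumor lines and from 241 to 585 with a median of 346 in the others, a difference of -0.96 ± 0.19. Cyr61, a matricellular protein, differed by -0.68 ± 0.14. Amotl2, a YAP-binding protein and YAP target, was not late because its tumor mean was under 0.5 below one group. It was lower in all 6 tumor lines, at 45.1 to 66.4 TPM against 67.9 to 86.6, by 0.52 ± 0.07 (adjusted p 0.000768 by limma).

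Of 18 immediate early and heat shock genes, which respond fast to growth factors or stress, 8 were called lower and 1 higher, with none late. Over all tested genes 12.3% were called lower and 18.7% higher. Junb was 0.63 ± 0.10 lower (adjusted p 0.00158 by limma), with PanIN minus normal and tumor minus PanIN both at -0.41. Ier5 was lower in all 6 tumor lines, at 37.3 to 46.7 TPM against 50.1 to 83.5, by 0.53 ± 0.09 (adjusted p 0.00191 by limma). The count of lower genes was 5 without normal line 12, tumor line 5 or tumor line 7, 4 without tumor line 8, 3 without tumor line 9 and 5 with the identifier series as a covariate. Of 25 MAPK output genes, which report signalling through ERK, 5 were called higher and 2 lower, near the share of all genes. Etv5, an ETS factor of this pathway, was higher in all 6 tumor lines, at 22.2 to 33.9 TPM against 10.9 to 21.7, by 0.67 ± 0.11 (adjusted p 0.00196 by limma). For Etv5, PanIN minus normal was 0.37 and tumor minus PanIN 0.47. Dusp1, a phosphatase of MAP kinases outside both lists, was named after its values were seen. It was late, ran from 9.83 to 41.7 TPM against 25.96 to 65.6 and differed by -1.06 ± 0.24.

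Gastric and mucin genes, which mark the foregut-like cells of PanIN, showed mostly an earlier step. Of 12 tested, 8 were called higher and 0 lower, with a median of 1.43, but PanIN lines already lay 0.98 above normal lines and only Spdef was late. Agr2, a protein folding enzyme of mucin secretion, ran from 10.7 to 83.5 TPM with a median of 26.4 in tumor lines and from 0.10 to 12.4 with a median of 2.82 in the others. It was 3.17 ± 0.38 higher (adjusted p 0.000362 by limma), with PanIN lines 2.19 above normal lines. The count was 5 with the filter at a TPM of 5 and 14 with no filter, which tests more genes.

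**Figure D5:**
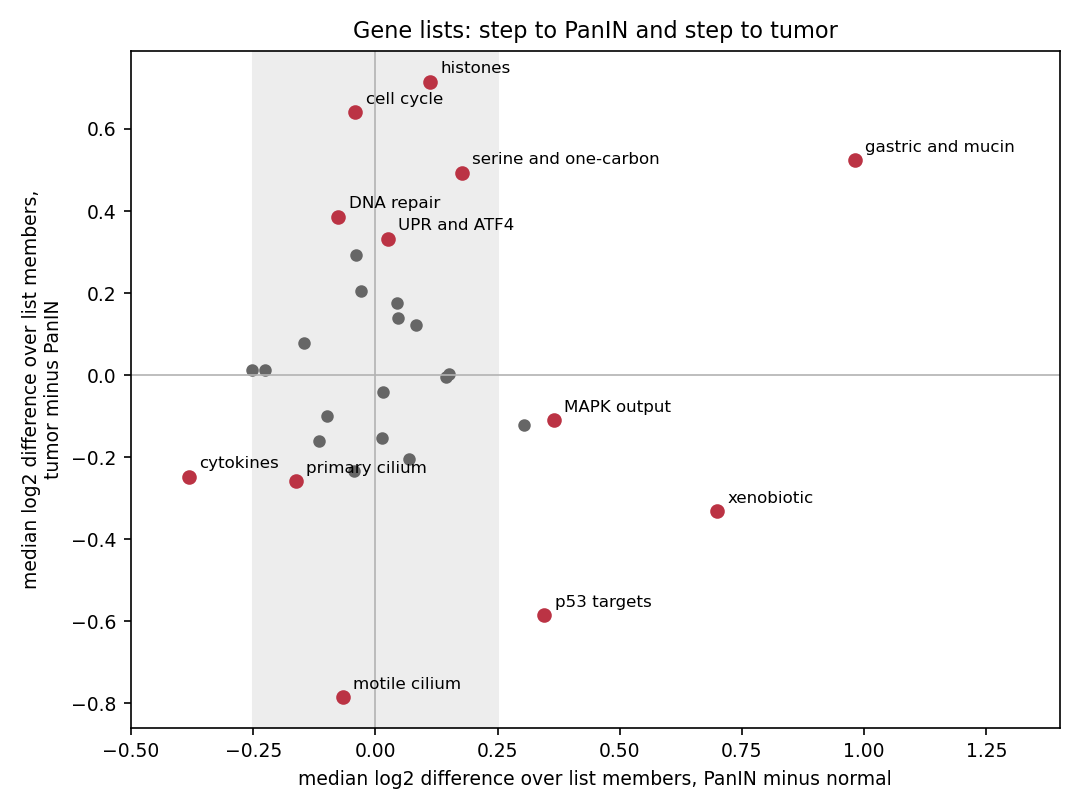
Each point is a gene list, with the median PanIN minus normal difference on the x axis and the median tumor minus PanIN difference on the y axis, both as log2(TPM + 1), and labelled lists in red. The grey band spans 0.25 to either side of 0 on the x axis. Cell cycle and histone genes lie inside the band and high, motile cilium genes inside it and low, p53 targets to the right at 0.35 and -0.59, and gastric genes farthest right at 0.98.

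Genes of DNA repair and the nuclear pore were called higher by smaller amounts than the cell cycle genes. Of 23 repair genes 13 were called higher and 0 lower, with a median of 0.33, and only Ung, the uracil glycosylase, was late at 0.57 ± 0.15. Exo1, an exonuclease of mismatch repair, was 0.57 ± 0.15 higher (adjusted p 0.0106 by limma). The count was 6 without tumor line 5, 3 without line 8 and 6 without line 9. Of 29 nucleoporins 18 were called higher and 0 lower, with a median of 0.26, and 10 were called without tumor line 8. Seh1l was 0.38 ± 0.08 higher (adjusted p 0.00417 by limma) and Nup107, of the same pore subcomplex, 0.50 ± 0.11 higher (adjusted p 0.00637 by limma). Nup85, the only late nucleoporin, belongs to that subcomplex as well.

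Of 35 respiratory chain genes 16 were called higher and 2 lower, with none late and a median of 0.17. The 16 are 45.7% of the list, against 18.7% over all tested genes. Cyc1, the cytochrome c1 of complex III, was 0.47 ± 0.11 higher (adjusted p 0.00762 by limma). This count rests on the scaling and on single lines. It was 9 with median-of-ratios scaling, 5 with quantile normalization, 8 after rescaling without the 11 rows, 10 with the identifier series as a covariate, 6 without tumor line 5, 3 without line 8 and 6 without line 9. Of 25 cytokine and chemokine genes 11 were called lower (44%, against 12.3% over all tested genes) and 1 higher, with a median of -0.45. Lif, an IL-6 family cytokine, was late, ran from 2.99 to 4.94 TPM against 4.72 to 11.7 and differed by -0.60 ± 0.14.

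The lists held 94 of the 288 late higher and 41 of the 211 late lower genes, and 72 of the 499 had symbols of predicted genes. Further late lower genes outside the lists were named after their values were seen. Txnip and Arrdc4, arrestin-domain proteins that limit glucose uptake, differed by -0.72 ± 0.25 and -0.71 ± 0.22. The complement genes Cfb, Masp1 and C1s differed by -1.18 ± 0.32, -0.89 ± 0.21 and -0.88 ± 0.33. Cfb ran from 20.4 to 139 TPM in tumor lines and 63.8 to 222 in the others, while C1s and Masp1 stayed at or below 2.19 TPM in every tumor line. Cpe, a carboxypeptidase of hormone processing, differed by -1.20 ± 0.30. Sox4, a transcription factor of progenitor cells, ran from 13.6 to 32.3 TPM against 30.3 to 62.5 and differed by -0.92 ± 0.18.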

How the data were processed

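RNA-seq of 19 mouse organoid lines was used. The authors deposited a single file with 29861 rows of TPM values per line, and each TPM column sums to 1000000 within rounding. The tools were Bowtie 1.1.0, RSEM 1.2.11, FastQC, DESeq and DESeq2 1.4.1 with build mm9, per the submitters' processing notes. The gene annotation was not given in the sources used here. The authors' deposited table also holds log2 fold changes and p-values of their own comparisons, of which only the p-values adjusted by the authors were counted here. Columns of other samples numbered 0. Since TPM holds no depth, no counting interval is given.

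Lines were grouped by their labels. One mean per group was fitted to log2(TPM + 1) over all 19 lines with limma 3.58.1 in R 4.3.3 (eBayes with trend, 16 residual degrees of freedom). The contrast was the tumor mean minus the pooled mean of the 13 other lines, two-sided, adjusted by Benjamini-Hochberg over 12500 genes with a TPM of at least 1 in at least 6 lines. Calls have an adjusted p below 0.05. Differences on this scale understate the change of low genes. The members, thresholds and gene lists were chosen with earlier results of these data known, and 3 lists were added later still (motile cilium, serine and one-carbon, histones). Named genes are late genes with the largest differences (mean TPM of at least 5, with all or with 3 or fewer tumor lines beyond the others, predicted symbols left out), list members with the smallest p and 4 genotype genes; others are said to be chosen after their values were seen. Some alleles of these mice are not reported here.

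Promoter sequences came from RefSeq tables of GRCm38.p6, and chromosomes from a RefSeq gene table by symbol. Figures were drawn in Python 3.11.15 with pandas 2.3.3 and matplotlib 3.10.9. The fit was tested on simulated data. Alternatives covered pseudocount, filter, scaling, model terms, late thresholds and leaving out lines.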

Additional observations from a re-analysis of the deposited data

Results flagged for a closer look

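Of 288 groups of lines tested over 96 named genes, 23 held 1 line that stood far from the rest of its group by Dixon's criterion at the 95% level, and chance gives about 1 in 20. The numbers here are TPM, each followed by that of the nearest line of its group.

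In 9 of the 23 the line was PanIN line 6, highest of the PanIN lines each time, mostly for genes of proliferating cells. It stood at 168.81 for Cdc20 (next 96.29), 121.21 for Mki67 (72.13), 661.89 for Hist1h1a (382.21), 69.53 for Hist3h2bb-ps (34.79) and 16.51 for Mybl2 (9.59). It also stood at 31.68 for Cdk2 (23.99), 48.73 for Nup107 (35.1), 19.61 for Xpo4 (14.56) and 153.68 for Tuba4a (99.57). Normal line 11 was the lowest normal line for 3 genes, at 33.34 for Cdk1 (62.6), 5.45 for Exo1 (9.41) and 7.9 for Cdkn2c (15.11).

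Within the tumor lines, line 5 was high for Psph at 76.83 (38.94) and line 9 for Rgl1 at 6.41 (4.16). PanIN line 5 was high for Asns at 143.27 (79.75). Normal line 6 was high for Tspan12 at 32.23 (7.56), Agr2 at 2.82 (0.76) and Bche at 12.62 (10.15). Normal line 12 was high for Trp53 at 84.78 (69.76) and Lif at 11.65 (7.93), and normal line 13 for Anxa10 at 1.46 (0.73). Normal line 10 was low for Kif27 at 5.96 (11.88) and high for Acsm3 at 1.01 (0.37).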

How the results depend on the processing

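Of 38 settings, some of which changed only the late rule, several moved the counts of calls by over 1.5 times. Among them was leaving out tumor line 5, 8 or 9. Requiring that tumor lines overlap no other line left 20 higher and 21 lower calls. With the label number as a replicate block, 3 genes (BC086315, Gcnt3 and Plac9) were called higher and 20 lower. A number held by 1 line alone gives that line a term of its own. Lines such as tumor lines 8 and 9 then add nothing to the difference. This fit thus rests on fewer lines and fewer residual degrees of freedom than the main one. Same-numbered lines had correlations of -0.3073 to 0.2475 (median 0.0707), with 1 of 7 over 0.1. Lines with different numbers had -0.7246 to 0.6066 (median -0.003), with 35 of 113 over 0.1. The labels do not say what a shared number means, and 7 pairs cannot settle whether the numbers pair the lines. Rescaling without the 11 rows gave 1469 higher calls. Without tumor lines 5, 8 and 9, chosen after seeing the data, 5 higher and 2 lower calls and 41 higher and 55 lower late genes were left, with fewer tumor lines. Leaving out 1 line gave 878 to 2958 higher and 823 to 1825 lower calls, and 203 to 484 late higher and 152 to 293 late lower genes. The extremes were without tumor line 8 or 4 for higher calls, and without normal line 11 or tumor line 4 for late higher genes. Late thresholds of 1 and 0.25 left 2 higher genes (Spdef and Tspan12) and 34 lower, and thresholds of 0.5 and 0.1 left 173 and 102. A pseudocount of 5 left 155 and 93. Without normal line 11 and PanIN line 6, chosen after seeing the data, 2688 and 1706 genes were called and 215 and 288 were late, of which 130 and 170 were also late in all lines. The cause of these changes was not tested, save where fewer lines or stricter limits were set. Of 96 named genes, 92 were called, 7 with the replicate block and 7 without tumor lines 5, 8 and 9, and none changed direction while called. TPM gives no depth, so counting error could not be set beside the spread between lines.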
